A study of Mus musculus with 4 samples.

Results

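The genes described here are the enzymes that build sterols and fatty acids, with their regulators. All gene probes of the array whose file name is one of 30 listed genes, or an older name of one (Sc4mol for Msmo1), were taken. All 30 genes had probes. The list holds 18 enzymes of sterol synthesis, 6 genes of fatty acid synthesis and 6 regulators and carriers, with 60 of the 41174 probes on the array. All 60 were among the 35563 probes kept after dim ones were left out.

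Expression was measured in epidermal keratinocytes grown from Casp-8F/–K5-Cre mice (F/-), which carry a loxP-flanked caspase-8 allele over the allele written as a minus, and from Casp-8F/+K5-Cre mice (F/+), which carry the flanked allele over a wild-type one. Both genotypes carry the Cre transgene, and its keratin 5 promoter is active in basal keratinocytes, so other cells in a culture need not have recombined. There were 2 mice per genotype, and the age entry reads P3 for both genotypes. RNA of passage 3 (late) and of passage 1 (early) gives 8 RNA samples, on 4 arrays. On each array an F/- culture in the dye Cy3 met an F/+ culture in Cy5, with no exchange of dyes, so dye and genotype cannot be told apart in a ratio; an equal dye effect drops out of late minus early. For both late arrays the source name of the Cy5 RNA gives the first passage, against 3 in the passage entry; titles and descriptions call these arrays late, and 3 was used. Caspase-8 starts death receptor signalling and its loss from basal keratinocytes is known to inflame mouse skin. The title of the series names change over culture time, which is the question of the comparisons below.

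Cholesterol and other sterols are built from acetyl-CoA through mevalonate, isoprenyl units, squalene and lanosterol. Fatty acids are built from the same precursor by a separate set of enzymes. Both branches are switched on by the SREBP transcription factors, which Scap carries out of the endoplasmic reticulum when sterols are low and which the Insig proteins hold back when sterols are high. In the epidermis cholesterol and long-chain fatty acids, with ceramides, form the water barrier that keratinocytes lay down as they differentiate.

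Windows around annotated start sites (RefSeq, GRCm38.p6), from 250 bases before to 50 bases after, were at hand for 24 of the 30 genes, 32 windows in all. They were searched for the letters of known motifs. The letters of the NF-Y motif, CCAAT or ATTGG on the other strand, stood in 14 of the 15 sterol enzymes with a window and in 2 of 4 fatty acid genes, against 37.4% of all 32851 windows. Genes with several windows count here if any of them matched. Counted by window, NF-Y stood in 14 of the 18 windows of sterol enzymes. With the regulators included it stood in 20 of the 24 genes and 21 of the 32 windows, so it is not particular to the sterol enzymes. A sterol regulatory element written TCACNCCAC, on either strand, matched in Hmgcs1 alone, at position -137 from the start site, and in 1.24% of all windows. The E-box CACGTG matched in 5 of the 24 genes and 7.15% of all windows, and the Sp1 motif GGGCGG, on either strand, in 20 of the 24 and 35.7%. Like NF-Y, Sp1 stood in 14 of the 15 sterol enzymes (15 of 18 windows), and it matched in 1 of 4 fatty acid genes. Each motif was counted for itself, also where matches of different motifs overlap. A match describes letters and is no sign that a factor binds there. Fdps, Fdft1, Sqle, Scd1, Scd2 and Stard4 were not matched.

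The 250 bases before the start site follow for the 4 sterol enzymes past the threshold between genotypes (Hmgcs1, Lss, Cyp51 and Ebp), for Insig1, which had the highest late ratio of the 30, and for Elovl6, past the threshold between passages. They are written 5′ to 3′ on the strand of the gene, with matches of NF-Y and of the sterol regulatory element in capitals. The 4 enzymes and Insig1 have at least 1 capital run, and Elovl6 has none.
Hmgcs1, chr13:119690101-119690350, plus strand: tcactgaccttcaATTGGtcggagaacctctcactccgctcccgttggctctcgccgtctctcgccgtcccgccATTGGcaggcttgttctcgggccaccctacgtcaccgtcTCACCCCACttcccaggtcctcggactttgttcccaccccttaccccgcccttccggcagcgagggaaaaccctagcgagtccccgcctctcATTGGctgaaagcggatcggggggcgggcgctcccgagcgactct
Lss, chr10:76531355-76531604, plus strand: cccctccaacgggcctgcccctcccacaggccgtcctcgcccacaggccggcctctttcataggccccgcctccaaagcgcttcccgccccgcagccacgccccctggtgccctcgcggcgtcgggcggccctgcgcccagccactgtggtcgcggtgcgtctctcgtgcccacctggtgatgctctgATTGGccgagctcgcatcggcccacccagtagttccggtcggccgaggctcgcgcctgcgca
Cyp51, chr5:4104698-4104947, minus strand: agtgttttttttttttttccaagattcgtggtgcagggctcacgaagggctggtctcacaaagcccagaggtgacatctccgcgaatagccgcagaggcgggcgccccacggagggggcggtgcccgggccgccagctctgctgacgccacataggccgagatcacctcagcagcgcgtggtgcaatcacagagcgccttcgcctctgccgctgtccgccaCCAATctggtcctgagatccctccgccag
Ebp, chrX:8193513-8193762, minus strand: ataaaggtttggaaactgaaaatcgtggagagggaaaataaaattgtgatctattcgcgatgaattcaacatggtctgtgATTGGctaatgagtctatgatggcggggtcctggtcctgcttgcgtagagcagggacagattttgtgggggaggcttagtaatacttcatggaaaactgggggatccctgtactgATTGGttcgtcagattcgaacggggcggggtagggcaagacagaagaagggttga
Insig1, chr5:28071162-28071411, plus strand: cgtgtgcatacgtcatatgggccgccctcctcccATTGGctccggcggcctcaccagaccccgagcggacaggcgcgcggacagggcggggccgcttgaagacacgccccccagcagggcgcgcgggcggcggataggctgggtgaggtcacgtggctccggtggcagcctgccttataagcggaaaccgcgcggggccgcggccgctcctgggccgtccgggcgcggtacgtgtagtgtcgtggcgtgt
Elovl6, chr3:129532136-129532385, plus strand: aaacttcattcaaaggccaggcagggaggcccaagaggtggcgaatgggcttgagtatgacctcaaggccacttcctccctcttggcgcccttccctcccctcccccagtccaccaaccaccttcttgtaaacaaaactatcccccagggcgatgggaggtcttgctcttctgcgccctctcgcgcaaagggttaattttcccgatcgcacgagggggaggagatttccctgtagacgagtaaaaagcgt

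**Figure D1:**
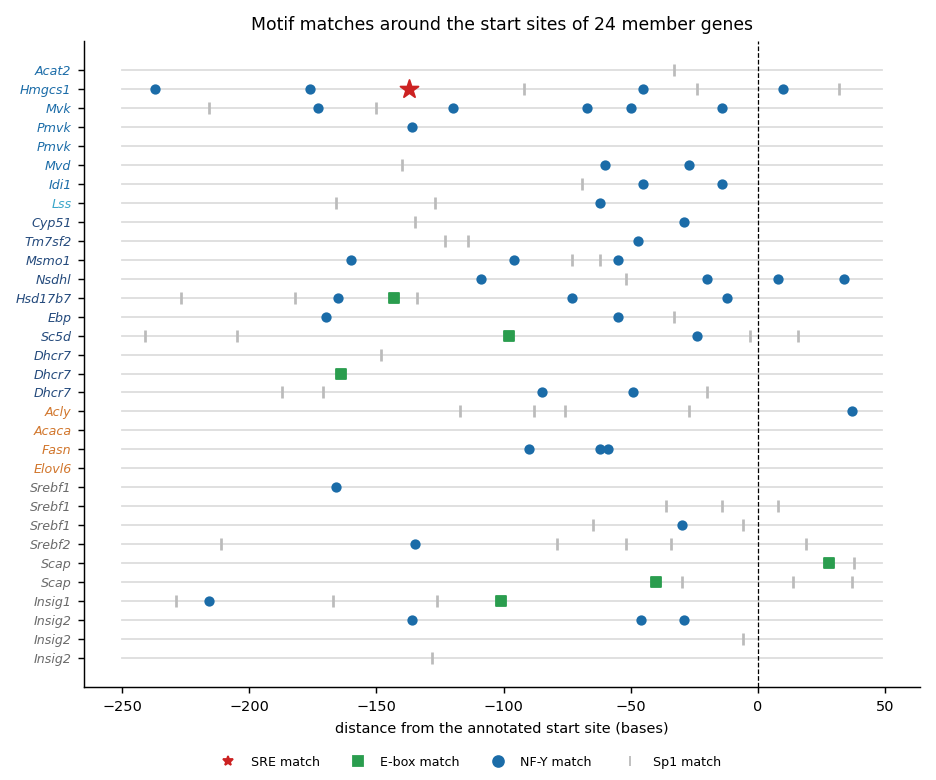
Motif matches in the windows of 24 genes. The horizontal axis is the distance in bases from the annotated start site (dashed line), each row is 1 window, and a gene with several start sites has several rows. The star is the only match of the sterol regulatory element, in Hmgcs1, and blue circles are NF-Y matches, which stand in all sterol enzymes with a window except Acat2.

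Levels are normalized intensities on the log2 scale, and ratios, also log2, set F/- over F/+ with the SD between arrays. An SD over all 4 arrays includes the difference between passages, while limma's p rests on the spread within passages and leaves that difference out. A ratio of 1 is a doubling. Each gene is read from its brightest probe. For all 30 genes that probe stood well above background on all 4 arrays, in Cy3 and in Cy5. The sterol enzymes were bright: their median of mean log2 intensity was 13.9, against 7.68 over all kept probes. Bulk RNA of a culture cannot tell fewer cells of a type from less RNA per cell. Keratin 5 and keratin 14, which mark basal keratinocytes, stood well above background in every sample. Both were lower in F/- cultures over both passages, with means of -0.60 and -0.66 and limma's adjusted p = 0.0318 and 0.0261, while the other 5 of 7 keratinocyte markers had ratios above 0 and none of these passed. The 7 summed to 420000 and 410000 in late F/- against 573000 and 567000 in late F/+, and to 479000 and 429000 in early F/- against 473000 and 554000 in early F/+. Their part in the calls between genotypes below was not tested. Per the design text, RNA of both passages came from the same mice, so the 4 arrays stem from 2 animals of each genotype, and p-values over 4 arrays treat them as separate.

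**Figure D2:**
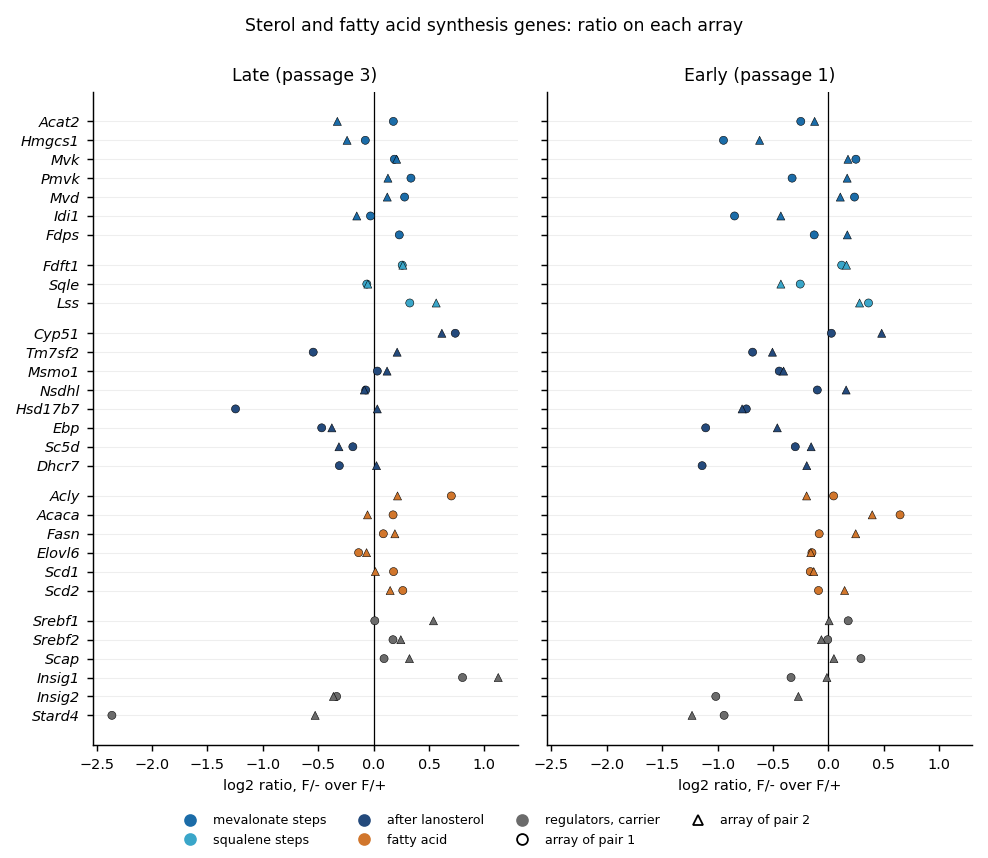
Ratio of F/- over F/+ (log2, horizontal axis) for each of the 30 genes, late arrays left and early arrays right. Circles are the arrays of pair 1 and triangles those of pair 2, and colours give the place in the pathway. Insig1 stands at 0.80 and 1.13 late and at -0.34 and -0.01 early, and Stard4 is lowest on the late array of pair 1 at -2.36.

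Over both passages 4 sterol enzymes passed limma's test (Benjamini-Hochberg adjusted p under 0.05), 2 in each direction. Lss and Cyp51 were higher in F/- cultures, and Hmgcs1 and Ebp were lower. That is 4 of 30 genes, 13.3%, beside 8.84% of all probes, of which 5.85% were higher and 2.99% lower. The median of the 30 was 0.03, with 15 above 0, beside -0.01 over all probes. Of the 18 sterol enzymes 7 were positive, with a median of -0.15. On all 4 arrays 7 of the 29 genes with no missing array were higher and 8 lower, 24.1% and 27.6%, beside 19% and 19.9% of all probes. With median centring in place of loess, 8 of the 30 passed, all of them lower, among 917 higher and 3050 lower probes against 2081 and 1064 with loess. Of all probes 5.44% and 5.08% passed by the scanner software's ratios and by the authors' table, and of the 30 genes none. None passed without the late array of pair 1, without either early array, or with the arrays of each pair averaged first, and in these 4 fits no probe of the array passed either. Without the late array of pair 2 the genes past the threshold were Hsd17b7, Stard4 and Tm7sf2. With the pair number as a replicate block they were Ebp, Hmgcs1 and Insig1, 3 of the 30 beside 9.12% of all probes.

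Hmgcs1 encodes the cytosolic HMG-CoA synthase, which makes the substrate of the rate-limiting step of sterol synthesis. Its brightest probe, A_51_P146941, had ratios of -0.07 and -0.24 late (pairs 1 and 2) and of -0.95 and -0.62 early. F/- was lower on all 4 arrays and the early arrays were lower than the late ones. The log2 intensities were 15.49 and 15.60 in late F/- and 15.57 and 15.83 in late F/+, then 15.17 and 15.68 in early F/- and 16.12 and 16.31 in early F/+. F/- and F/+ do not overlap at the early passage, while in the late samples the lowest F/+ lies below the highest F/-. The mean ratio over both passages was -0.47 ± 0.39 (SD, n = 4), with limma's adjusted p = 0.0377. A second, dimmer probe, A_52_P388072, went the other way, at 1.05 and 0.70 late and 0.22 and 0.37 early, with a mean of 0.58 and limma's adjusted p = 0.0291. The remaining probe was below 0 on all 4 arrays, with a mean of -0.31. The direction for Hmgcs1 depends on which probe is read.

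Ebp encodes the sterol isomerase that moves a double bond in the sterol ring after lanosterol. Its only probe read -0.47 and -0.38 on the late arrays and -1.11 and -0.46 on the early arrays. F/- was lower on all 4, and furthest on the early array of pair 1. Its intensities were 14.52 and 14.40 in late F/- against 14.99 and 14.78 in late F/+, and 14.52 and 14.96 in early F/- against 15.63 and 15.42 in early F/+. The genotypes do not overlap at either passage. The mean was -0.60 ± 0.34 (SD, n = 4), a fold of 0.658, with limma's adjusted p = 0.0479.

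Lss encodes lanosterol synthase, which closes the sterol rings. Ratios were 0.33 and 0.57 late and 0.36 and 0.28 early, all 4 above 0 and close to each other. The mean was 0.38 ± 0.13 (SD, n = 4), a fold of 1.30, with limma's adjusted p = 0.0392. A second probe of Lss also passed, at 0.50 with limma's adjusted p = 0.0272. The last one read 0.60 and -0.04 late and -0.26 and -0.15 early, with a mean of 0.04, so it did not hold the sign on every array.

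Cyp51 encodes the demethylase that acts on lanosterol. Its ratios were 0.74 and 0.62 late and 0.03 and 0.48 early, all above 0, with the early array of pair 1 close to 0. The mean was 0.47 ± 0.31 (SD, n = 4), with limma's adjusted p = 0.049. Of its 2 other probes, 1 read 0.33 on average and the other was below 0 on all 4 arrays, at -0.19 and -0.12 late and -0.42 and -0.24 early.

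The late ratio of Insig1 was the highest of the 30. Insig1 encodes the sterol-induced retention protein for Scap and is itself a known SREBP target. Its brightest probe, A_51_P290207, had log2 intensities of 10.19 and 9.41 in late F/- against 9.39 and 8.28 in late F/+, and of 9.87 and 10.26 in early F/- against 10.21 and 10.28 in early F/+. F/- was higher within both late pairs and lower within both early pairs, and the lowest late F/- value lies just above the highest late F/+ value. The ratios were 0.80 and 1.13 late, a mean of 0.96 ± 0.23 (SD, n = 2), with limma's adjusted p = 0.079. That was the smallest of any probe at that passage, shared by others such as keratin 14 and a dimmer probe of Hmgcs1. Early ratios of Insig1 were -0.34 and -0.01. The second probe of Insig1 read 0.01 and 0.16 late and -0.32 and -0.14 early, the same order of passages at a smaller size.

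The lowest ratio over both passages was that of Stard4, a cytosolic sterol carrier. Its brightest probe read -2.36 and -0.53 late and -0.94 and -1.23 early, with a mean of -1.27 ± 0.79 (SD, n = 4) and limma's adjusted p = 0.0696. Other probes of Stard4 read -0.14 and -0.02 on average, so the low ratio is that of 1 probe. Hsd17b7, a ketoreductase of sterol demethylation, read -1.25 and 0.03 late and -0.74 and -0.78 early, and its late arrays lay on either side of 0. Insig2, the second retention protein, read -0.33 and -0.36 late and -1.02 and -0.27 early, below 0 on all 4 arrays, with limma's adjusted p = 0.0834. Its other probes had means of -0.16 and -0.14, and the first of them read 0.20 on the late array of pair 2. Acaca, the acetyl-CoA carboxylase that commits carbon to fatty acids, read 0.18 and -0.05 late and 0.65 and 0.40 early. Its 3 other probes had means of -0.19, -0.0042 and -0.11 over both passages, so its higher ratio also stands on 1 probe.

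**Figure D3:**
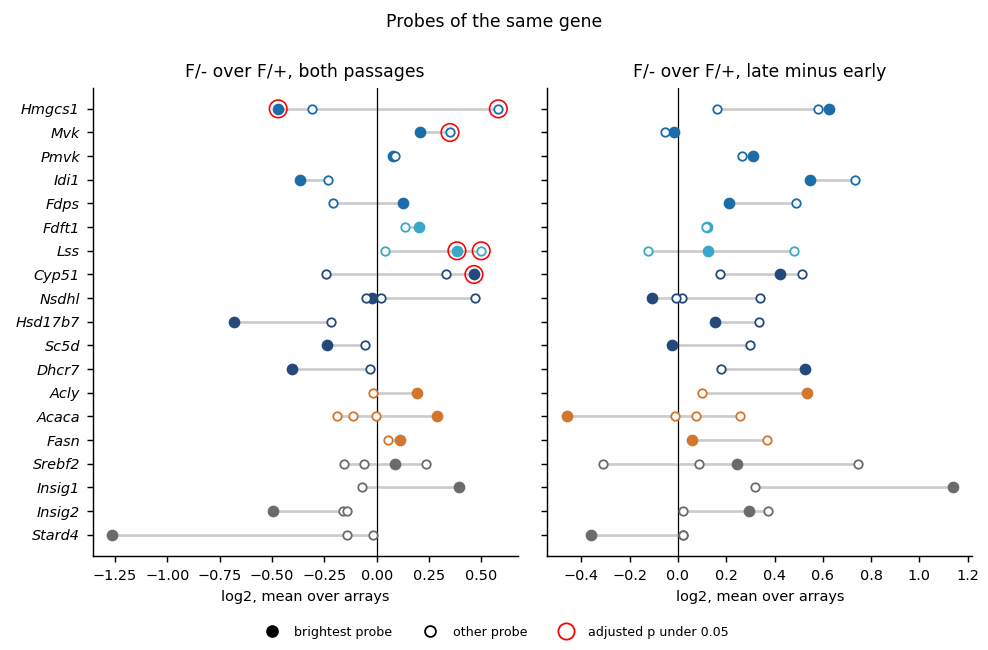
All probes of the 19 genes with several probes, as mean log2 ratio of F/- over F/+ over both passages (left) and as late minus early (right). Filled circles are the brightest probe, open circles the others, and red rings mark an adjusted p under 0.05. Hmgcs1 has ringed probes on both sides of 0, and in late minus early most probes lie right of 0.

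Probes of 1 gene often disagreed. Of the 19 genes with more than 1 probe, 8 had probes on both sides of 0 in the mean over both passages (Hmgcs1, Fdps, Cyp51, Nsdhl, Acly, Acaca, Srebf2 and Insig1). In late minus early 6 did (Lss, Nsdhl, Sc5d, Acaca, Srebf2 and Stard4). Over all 60 probes 7 passed the test over both passages, 11.7%, beside 8.84% of all probes. These 7 include the opposed pair of Hmgcs1 and a second probe of Mvk, the mevalonate kinase, at 0.35.

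Within a passage no gene of the 30 passed, late or early, and no probe of the array did (0% called; smallest adjusted p of limma's test 0.079 late and 0.0701 early). At an unadjusted p under 0.05 stood 9 of the 30 late and 12 early, beside 7109 and 7330 of 35563 probes. The median of the 30 was 0.09 late, with 17 positive, and -0.11 early, with 12 positive. On both late arrays 15 of 29 genes were higher and 9 lower in F/-, 51.7% and 31%, beside 31.1% and 34.9% of all probes. On both early arrays 8 of 30 were higher and 16 lower, 26.7% and 53.3%, beside 33.1% and 34.2%. The sterol median was -0.07 late, with 8 of 18 positive, and -0.21 early, with 7 of 18. By array it was 0.0028 and 0.03 late and -0.28 and -0.14 early in pairs 1 and 2. The fatty acid genes had medians of 0.12 late and -0.02 early, with 5 and 3 of 6 positive. Sterol minus fatty acid medians were below 0 on each array, at -0.17 and -0.05 late and -0.19 and -0.15 early.

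Median centring in place of loess moved both groups down, the sterol median to -0.45 late and -0.66 early and the fatty acid median to -0.25 and -0.36. The median of all probes moved to -0.06 at both passages. A mean over all probes of a gene put the late sterol median at 0.08, and the scanner software's ratios put the early fatty acid median at 0.03. The level of either group against 0 therefore depends on the scaling, while the sterol median was below the fatty acid median at both passages in all settings run.

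By place in the pathway, the 7 mevalonate enzymes had medians of 0.20 late and -0.08 early. Mvk and Mvd, the kinase and the decarboxylase, were above 0 on all 4 arrays, between 0.11 and 0.28. Idi1, the isomerase of isoprenyl units, was below 0 on all 4, at -0.03 and -0.15 late and -0.85 and -0.43 early. Its second probe read 0.03 and 0.25 late and -0.73 and -0.46 early. Acat2, which joins 2 acetyl-CoA, and Pmvk, which phosphorylates mevalonate again, were on both sides of 0. Fdps, the farnesyl diphosphate synthase, lacked the late array of pair 2, whose spot was an outlier to the scanner software; the fit used its other 3 arrays, at 0.23 late and -0.13 and 0.17 early. Of the squalene steps, Fdft1, the squalene synthase, was above 0 on all 4 arrays, between 0.12 and 0.26, and Sqle, the epoxidase, below 0 on all 4, between -0.43 and -0.05.

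By their brightest probes the 8 enzymes after lanosterol were lowest as a group, with a median of -0.15 late and -0.51 early. Over both passages 7 of 8 were below 0. Cyp51, the first of them, was the exception. Msmo1, the methyl sterol oxidase, read 0.03 and 0.12 late against -0.44 and -0.40 early. Dhcr7, which makes the last reduction to cholesterol, read -0.31 and 0.03 late against -1.14 and -0.20 early. Tm7sf2, a sterol reductase, was below 0 on 3 arrays, Sc5d, the desaturase, on all 4, and Nsdhl, a sterol dehydrogenase, on 3, with means of -0.38, -0.24 and -0.02. Second probes of Hsd17b7, Dhcr7 and Sc5d had means of -0.22, -0.03 and -0.06, against -0.68, -0.40 and -0.24 by the brightest. The other probes of Nsdhl had means of 0.47, -0.05 and 0.02, the first above 0 on all 4 arrays.

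Of the fatty acid genes, Elovl6, which lengthens palmitate, was below 0 on all 4 arrays, between -0.16 and -0.06. Acly, the citrate lyase that supplies acetyl-CoA, read 0.70 and 0.22 late and 0.05 and -0.20 early. Fasn, the fatty acid synthase and brightest of the 30, read between -0.08 and 0.25. The desaturases Scd1 and Scd2 read between -0.16 and 0.26. Srebf1 and Scap were above 0 on all 4 arrays, at up to 0.54 and 0.32, and Srebf2, the SREBP gene tied most to sterols, read 0.17 and 0.25 late and -0.01 and -0.06 early.

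The difference between passages, late minus early, asks whether the genotype ratio moved during culture. Ratios were higher late in 25 of the 30 genes, with a median of 0.20, beside -0.0032 over all probes. The difference was positive for 15 of the 18 sterol enzymes and 5 of 6 in each of the other groups. In both pairs it was positive for 16 of the 29 genes with all arrays, 55.2%, and negative for 1 (Acaca), beside 25.2% and 26.3% of all probes. Among sterol enzymes both pairs were positive in 10 of 17 and negative in none: Hmgcs1, Mvd, Idi1, Fdft1, Sqle, Cyp51, Tm7sf2, Msmo1, Ebp and Dhcr7. Of all 60 probes, 50 were positive.

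No single gene passed: limma called 0 of the 30 and 0% of all probes, the smallest adjusted p was 0.82, and 6 of the 30 and 2073 of all probes had an unadjusted p under 0.05. Insig1 was furthest from 0, with differences of 1.14 in each pair. By its second probe the difference was 0.32. Hmgcs1 followed with 0.87 and 0.38 in pairs 1 and 2, then Idi1 with 0.82 and 0.28, and Acly with 0.66 and 0.41. Msmo1 had 0.48 and 0.53 and Dhcr7 0.83 and 0.22. Acaca was the lowest, at -0.47 and -0.45, while its other probes read from -0.01 to 0.26. The sterol median was 0.10 without the early array of pair 1, against 0.25 with all arrays, and in the settings run between 23 and 27 of the genes were positive. Sterol minus fatty acid medians were above 0 here, at 0.13 with all arrays and between 0.036 and 0.18 in the settings run.

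**Figure D4:**
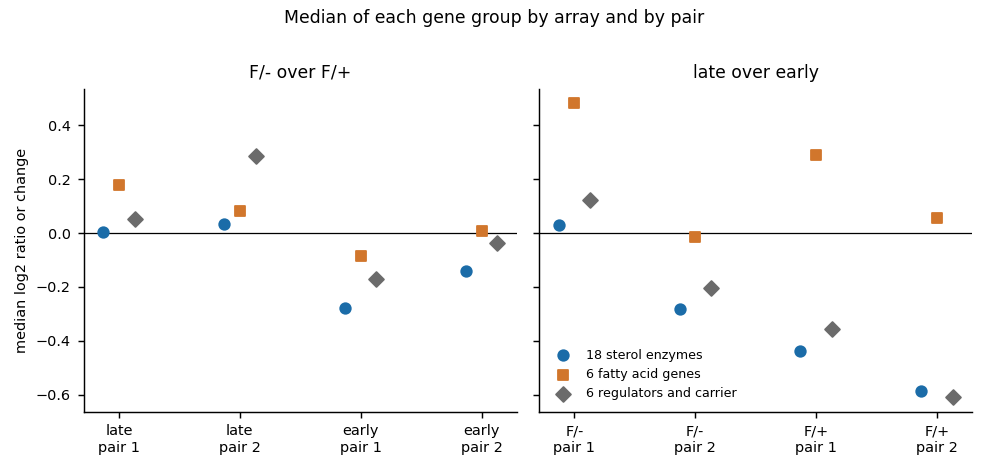
Median log2 ratio of F/- over F/+ on each array (left) and median log2 change of late over early in each pair of each genotype (right), for sterol enzymes (circles), fatty acid genes (squares) and regulators with the carrier (diamonds). Sterol medians lie below fatty acid medians on every array and in every pair, and the F/+ pairs have the lowest sterol medians, -0.44 and -0.59.

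The same differences can be read as change with passage within each genotype, which compares RNA in 1 dye. The values of F/- and F/+ share arrays, and their difference is the late minus early value above. In F/- cultures the sterol enzymes had a median change of -0.14, with 5 of 17 positive, and in F/+ cultures one of -0.46, with 3 of 17 positive, beside 0.01 and 0.02 over all probes. By pair the sterol median was 0.03 and -0.28 in F/- and -0.44 and -0.59 in F/+. Fatty acid genes had medians of 0.25 in F/- and 0.19 in F/+, each with 5 of 6 positive. By pair these were 0.48 and -0.02 in F/- and 0.29 and 0.06 in F/+. With each channel centred on its own median the sterol change turned to 0.06 in F/-, equal to the median of all probes in that setting, and was -0.19 in F/+.

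In F/+ cultures 11 of 17 sterol enzymes were lower at the late passage in both pairs, 64.7%, beside 31.8% of all probes. They were Hmgcs1, Pmvk, Mvd, Idi1, Fdft1, Lss, Msmo1, Nsdhl, Hsd17b7, Ebp and Dhcr7. In F/- cultures 8 of 17 were, 47.1%, beside 35.3% of all probes. Over all 29 genes, 7 were higher and 10 lower in both F/- pairs, 24.1% and 34.5%, beside 37.5% and 35.3% of all probes, and 6 were higher and 15 lower in both F/+ pairs, 20.7% and 51.7%, beside 35.1% and 31.8%. Sizes differed among the enzymes. Lss changed by -0.61 and -1.68 in F/- and by -0.58 and -1.96 in F/+, and Pmvk by -0.46 and -1.03 in F/- and by -1.12 and -0.99 in F/+. Tm7sf2 went the other way, at 1.5 and 1.01 in F/- and 1.36 and 0.29 in F/+.

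**Figure D5:**
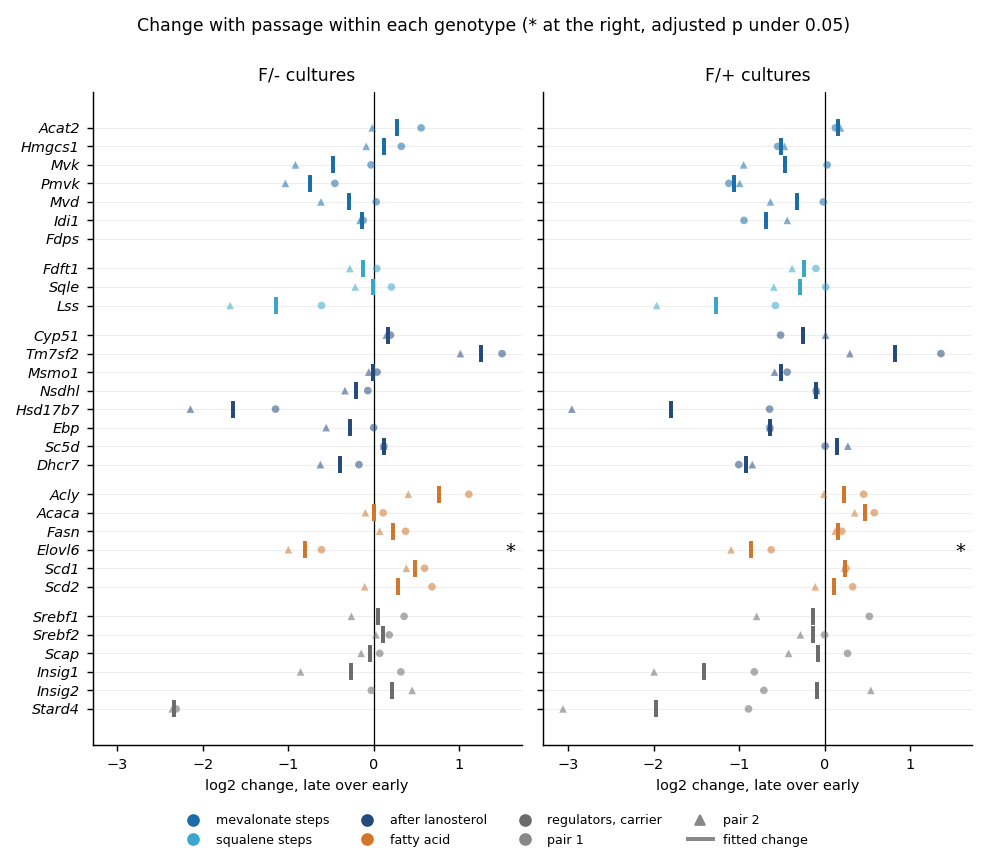
Change of late over early (log2, horizontal axis) within F/- cultures (left) and F/+ cultures (right). Circles and triangles are pairs 1 and 2, bars the fitted change, and an asterisk at the right an adjusted p under 0.05. Elovl6 is marked in both panels, and Fdps, which lacked a late array, has no values.

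Of the 29 genes tested, 1 passed in each genotype, and it was Elovl6, lower late in both. That is 3.45%, beside 5.11% of all probes in F/- (2.89% higher, 2.22% lower) and 5.66% in F/+ (3.23% higher, 2.42% lower). Its log2 intensities were 10.96 and 10.58 in late F/- against 11.57 and 11.58 in early F/-, and 11.10 and 10.64 in late F/+ against 11.72 and 11.74 in early F/+. All 4 late samples lay below all 4 early ones. The changes were -0.81 ± 0.27 in F/- and -0.86 ± 0.33 in F/+ (SD, n = 2 pairs each), with limma's adjusted p = 0.0472 and 0.0362. In simulated arrays with the brightness spread of the real ones, this fit made more false calls in F/- than its threshold allows. Changes were planted in F/- only, and in F/+ 0 or 1 probe was called. The spread was each probe's own, from the few arrays at hand. Adjusted p-values of change with passage may therefore be too small, by an unknown amount. Elovl6 did not pass in either genotype without the late array of pair 2 or without either early array, where no gene or other genes of the 30 did. Without the late array of pair 1, 5 genes passed in F/- and 6 in F/+, all of them lower late, while the share of all probes that passed was 8.7% and 12.9% in that setting. In F/- it also did not pass with a normexp offset of 0, without background subtraction or with each channel centred on its median, and in F/+ not with centred channels or with an offset of 0, where Insig1 passed in its place. With the pair number as a replicate block 0 passed in F/- and Elovl6 alone in F/+.

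Among the other probes, the second one of Insig1 fell in both genotypes, by 0.89 in F/- and 1.20 in F/+ with limma's adjusted p = 0.0451 and 0.0146. The brightest probe of Insig1 changed by 0.32 and -0.86 in F/- and by -0.82 and -2.0 in F/+, and in F/+ limma's adjusted p was 0.061. Second probes of Pmvk and Idi1 fell in F/+, by 1.06 and 1.07 with limma's adjusted p = 0.0201 and 0.0222. Stard4 had the lowest changes, -2.31 and -2.36 in F/- and -0.89 and -3.06 in F/+, and its 2 other probes changed by -0.81 and -0.83 in F/- and by -0.84 and -0.85 in F/+.

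Other genes of sterol and fatty acid handling were counted from lists. The list of 20 further sterol genes (uptake, export, storage and control) was measured whole, had a late minus early median of -0.11 with 8 positive, and none passed between genotypes (limma; 10 of the 20 had an unadjusted p under 0.05 over both passages, beside 10458 of 35563 probes). In F/+ cultures 2 of these 20 rose with passage, beside 3.23% of all probes, among them Mylip, whose product marks the LDL receptor for breakdown, by 0.87 with limma's adjusted p = 0.0462. Of 20 further fatty acid genes 19 were measured, with a late minus early median of -0.07 and 8 positive. In F/- over F/+ the further sterol genes had medians of 0.08 late and 0.08 early, and the further fatty acid genes -0.08 and -0.07. With passage the sterol and fatty acid medians of these lists were 0.31 and 0.09 in F/-, and 0.083 and 0.079 in F/+. In each of these comparisons the sterol median was the higher one, the reverse of the 30 genes. Over both passages Fads1, a desaturase of polyunsaturated fatty acids, was higher in F/- cultures, with ratios of 0.85 and 0.22 late and 1.13 and 0.63 early. Acss2, which makes acetyl-CoA from acetate, was lower, with -0.24 and -0.10 late and -0.63 and -0.42 early. Their means were 0.71 and -0.35, with limma's adjusted p = 0.049 and 0.0454. With passage Acot7, an acyl-CoA thioesterase, rose by 1.37 in F/- and 1.70 in F/+ (limma's adjusted p = 0.00556 and 0.00205), and Acss2 fell by 1.04 in F/+ (0.0184).

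Markers of keratinocyte state and of other cells moved with the same comparisons. The summed intensity of 6 suprabasal markers was 5200 and 4710 in late F/- against 57600 and 77000 in early F/-, and 11300 and 7700 in late F/+ against 156000 and 124000 in early F/+. Of these 6, 5 changed below 0 with passage in each genotype, with medians of -2.11 in F/- and -2.64 in F/+. Between genotypes their median was -0.24 late and -0.72 early. The 7 cell cycle genes had a median of -0.60 late and -0.06 early in F/- over F/+, all 7 below 0 late, and changed with passage by -0.70 in F/- and -0.11 in F/+. In late minus early their median was -0.58, with 0 of 7 positive. Over both passages 3 of the 7 were lower in F/- past the threshold, as were 2 of the 6 suprabasal markers, beside 2.99% of all probes. Summed, the cell cycle genes ran from 20100 to 23000 in late F/-, 36800 to 37100 in early F/-, 30700 to 35300 in late F/+ and 35500 to 39100 in early F/+.

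Sebaceous and fat cells also make these enzymes at high levels. Of 8 sebocyte markers 6 were measured, 3 of them well above background in every sample. Their sum was 1950 and 2430 in late F/- against 12000 and 17800 in early F/-, and 4130 and 2420 in late F/+ against 24800 and 17600 in early F/+. Over the 6 markers the median change with passage was 0.0044 in F/- and 0.05 in F/+, with 3 and 4 of 6 positive. Beside 5.11% and 5.66% of all probes, 1 of the 6 passed in each genotype. That one, Cidea, a lipid droplet protein, changed by -3.26 in F/- and -3.27 in F/+ (limma's adjusted p = 0.0394 and 0.0364). The sum of 6 adipocyte markers ran from 3150 to 4360 in F/- and from 3400 to 7080 in F/+, and 3 of the 6 were well above background in every sample. With passage 1 of these 6 was lower past the threshold in each genotype, beside 2.22% and 2.42% of all probes. The 8 macrophage markers had medians of 0.76 late and 0.59 early in F/- over F/+. They summed to 13900 and 8910 in late F/- against 35100 and 24000 in early F/-. In F/+ the sums were 3700 and 3470 late against 21900 and 24600 early. With passage 2 of the 8 were lower past the threshold in F/- and 4 in F/+, beside 2.22% and 2.42% of all probes. Over both passages 1 of the 8 was higher in F/- past the threshold, beside 5.85% of all probes. The 7 fibroblast markers had medians of 0.77 late and 0.09 early in F/- over F/+, and of 0.56 in late minus early, with 6 of 7 positive and none past the threshold. They summed to 4410 and 3150 in late F/- against 1630 and 1640 in early F/-, and to 1460 and 2230 in late F/+ against 1180 and 1660 in early F/+. All 5 melanocyte markers were lower late in both genotypes, with medians of -1.46 in F/- and -1.41 in F/+. Of these 5, 4 passed in F/- and 3 in F/+, beside 2.22% and 2.42% of all probes called lower. The sum of the 5 markers was 25400 and 25400 in late F/- against 67100 and 70700 in early F/-, and 26900 and 23700 in late F/+ against 70500 and 83900 in early F/+. The part of these cells and states in the sterol and fatty acid values was not tested.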

How the data were processed

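RNA of F/- (Cy3) and F/+ (Cy5) keratinocytes was measured on 4 two-colour Agilent arrays, 2 per passage. The submitters' processing notes name Agilent Feature Extraction 9.1.3.1. Each deposited scanner file gives raw mean intensity and median local background of every spot and log10 ratios of processed signals, per the file headers. The authors' deposited table holds the same log10 ratios with the sign turned (largest gap 4.96e-06), so its scale and direction are known; its medians ran from -0.00223 to 0, and how spots came to be empty in it is not given in the sources used here.

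Intensities were corrected with normexp (offset 50) and loess-normalized with limma 3.58.1 under R 4.3.3; outlier spots and controls were left out. Of 41174 probes, 35563 were kept: those that 2 or more arrays showed well above background in 1 channel or both, and that lacked no more than 1 array. Median raw signal was 101 to 139 in Cy3 and 166 to 253 in Cy5, over backgrounds of 37 to 39 and 59 to 61, and the number of arrays limits the precision. Genotype was tested with limma on ratios (2 residual and 2.81 prior degrees of freedom). Late over early was tested in each genotype by limma's separate-channel analysis of the 35464 probes with no missing array (correlation within spots 0.741). All p-values were two-sided and adjusted over all probes by the Benjamini-Hochberg method, with 0.05 as the threshold. Both fits were tested on simulated data. The ratio fit recovered all planted differences, with more false calls than the set share in the early comparison. The separate-channel fit kept near that share only where the simulated variances followed its own model, a setting chosen after a first simulation had failed. With brightness drawn at the spread between the real arrays, the share of false calls in F/- was several times the set one. Changes were planted in F/- only, and in F/+ 0 or 1 probe was called.

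The 30 genes, the further lists and the tests were chosen with earlier results of these data known. Each gene was read from its brightest kept probe. Array values were given for genes past the threshold and for the 4 highest and 4 lowest ratios over both passages; other pathway genes past the threshold were named, up to 4 per list, and 1 gene is not reported here. Same-numbered arrays come from the same animals; their deviations from the passage means correlated at -0.000471 across probes. All 4 arrays share 1 slide and 1 scan, so neither could be used as a block.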

Additional observations from a re-analysis of the deposited data

Results flagged for a closer look

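For 4 genes both late arrays lay on one side of 0 and both early arrays on the other, in each case higher in F/- late and lower in F/- early. They were Insig1, with a late minus early difference of 1.14, Msmo1 with 0.50, Scd1 with 0.25 and Srebf2 with 0.25. Limma's test of this difference did not pass for any of them, with adjusted p = 0.82 for Insig1 and Msmo1, 0.87 for Scd1 and 0.864 for Srebf2. The share of all probes that change sides in this way was not counted. The side of 0 also depends on the scaling: with median centring only 4 of the 30 genes were above 0 late and 3 early. Read within genotypes, Srebf2 was the single gene of the 30 whose change with passage was above 0 in both F/- pairs (0.18 and 0.03) and below 0 in both F/+ pairs (-8e-04 and -0.28), the same difference of 0.25. Other probes of Srebf2 had late minus early differences from -0.31 to 0.74 between passages.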

How the results depend on the processing

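Over both passages 4 of the 30 genes passed. The number was 2 without background subtraction and with no filter on dim probes, beside 8.32% and 7.44% of all probes. It was 2 with the mean of all probes of a gene, beside 6.53% of all genes, and 8 with median centring, beside 11.2%. It was 0 with the scanner software's ratios and with the authors' table, beside 5.44% and 5.08% of all probes. It was also 0 with the arrays of a pair averaged first, where no probe passed. With 1 array left out, the genes past the threshold changed, and so did the share of all probes that passed. In F/- 1 gene passed between passages, beside 5.11% of all probes. The number was 0 with offset 0 (5.89% of probes) and without background subtraction (4.61%). It was also 0 with each channel centred on its median (4.8%), and 2 with the mean of all probes (5.89% of genes). In F/+ it was 1, beside 5.66% of all probes, then 0 with centred channels (7.53%) and 1 with offset 0 (Insig1 and not Elovl6, 6.64%). It was 2 with the filter for both channels (6.63%) and 5 with the mean of all probes (6.58% of genes). Leaving out 1 array gave 0 to 5 in F/- and 0 to 6 in F/+. With the pair number as a replicate block, 3, 0 and 1 genes passed over both passages, in F/- and in F/+. Of all probes 9.12%, 3.42% and 4.03% passed there, and the block changed no other call among the 30. Within a passage, and in late minus early, 0 passed in every setting run. The sterol minus fatty acid median was below 0 in every setting within a passage, over both passages and with passage in each genotype, and above 0 in every setting of late minus early. At the late passage it was -0.18, against -0.067 with the mean of all probes and -0.18 to -0.049 with 1 array left out. At the early passage it was -0.18, against -0.30 with median centring, -0.28 with the scanner software's ratios and the authors' table, and -0.20 to -0.15 with 1 array left out. With passage it was -0.65 in F/+, against -0.47 with the mean of all probes and -0.75 to -0.59 with 1 array left out, and -0.40 in F/-, with -0.50 to -0.32. The causes were not tested. Fits with 1 array at a passage assume that it varies like the others, and separate-channel fits on 3 arrays kept the correlation of all 4.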
